A study of Homo sapiens with 35 samples.

Results

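The hypoxia response of HCT116 cells depleted of CDK19 was described from 5 of the 35 arrays of the series, the 2 titled as shCDK19 cells in hypoxia and the 3 titled as shCDK19 cells in normal growth. They were chosen by these titles alone, with no measured value. HCT116 is an established human colorectal carcinoma line, and the study compared derivatives that carry a control hairpin (shControl) or one that targets CDK8 (shCDK8) or CDK19 (shCDK19). Total RNA was measured on whole-transcript arrays, and every value below is the deposited log2 level of 1 transcript cluster, the probe set that stands for a gene.

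Cells of all groups, the controls included, carried a hairpin and had been plated in McCoy's 5A with 10% fetal calf serum for 24 h when treatment began. The hypoxia groups then spent 24 h at 1% oxygen, with 2 arrays each for shCDK19, shControl and shCDK8. The normal growth groups were untreated, with 3 arrays per line. The other shCDK19 groups were treated with 5-fluorouracil (5FU, 2 arrays) or kept in low glucose medium (3 arrays), and shControl cells in DMSO (2 arrays) and in high glucose medium (3 arrays) were used as further untreated references. The labels name 1 hairpin line per target, so the loss of CDK19 and any other property of this line cannot be told apart. No label says that replicates were separate cultures, so the p-values measure only the spread between arrays, which may be technical.

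Hypoxia-inducible factors (HIF) are made of an oxygen-labile alpha subunit and ARNT. In oxygen the EGLN prolyl hydroxylases mark the alpha subunit for capture by VHL and destruction, and without oxygen it accumulates, binds a short core sequence in promoters and enhancers and raises genes for glucose uptake, glycolysis, vessel growth and the removal of mitochondria. CDK8 and CDK19 are paralogous kinases of Mediator, the bridge between transcription factors and the polymerase that makes messenger RNA, and HIF1A is known to work through CDK8 and Mediator in this cell line. The comparison asked which parts of that response the shCDK19 line made.

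Hypoxia and normal growth came from different experiments, and normoxic arrays of the hypoxia experiment were not analysed here, so oxygen and experiment cannot be told apart in the change within a line. For scale, shControl cells in DMSO and in high glucose, each from another experiment, also differed from shControl cells in normal growth, at 7381 and 5593 of 18404 genes (limma, adjusted p under 0.05). These groups also differ in vehicle or medium, so the counts do not measure the experiment alone. A difference between the responses of 2 lines is free of any shift common to all arrays of an experiment. A pair of arrays stood apart from their replicates. Hypoxic shControl replicate 1 correlated with replicate 2 at r = 0.976 across all clusters, and 900 genes lay at least 2-fold below the shControl normal growth mean on replicate 1 against 139 on replicate 2. Normal growth shCDK8 replicate 1 correlated with another replicate at 0.987, whereas replicates of the other 12 groups correlated at 0.992 to 0.998. The 5 shCDK19 arrays correlated with their replicates at 0.994 or more. Results on the shControl and shCDK8 responses are therefore followed by their values without these arrays.

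CDK19 checked the label. Its level was 7.78, 7.69 and 7.32 on the shCDK19 normal growth arrays and 7.96 and 8.15 in hypoxia, against 9.10, 9.09 and 9.11 and then 9.00 and 9.31 in shControl. All 5 shCDK19 arrays lay below all 5 shControl arrays. The difference from shControl was -1.50 in normal growth (adjusted p = 1.2e-10) and -1.10 in hypoxia (adjusted p = 1e-06), and CDK19 was 0.46 ± 0.11 (SE) higher in hypoxic than in untreated shCDK19 cells (adjusted p = 0.0025, limma). CDK8 shares its only cluster with ADRA1B, an adrenergic receptor gene, and that cluster read 10.51, 10.30 and 10.17 in untreated and 10.64 and 10.72 in hypoxic shCDK19 cells, a difference of 0.35 that did not pass (adjusted p = 0.26). Of the 6 measured genes of the Mediator kinase module CDK19 and MED13L (0.23) rose and MED12L (-0.43) fell. The CDK19 rise did not pass in the fit of the compared lines alone (adjusted p = 0.0966) or without hypoxic replicate 2 (0.37, adjusted p = 0.0711), nor did MED12L without hypoxic replicate 1 (-0.40, adjusted p = 0.0522), and against the mean of the 3 other shCDK19 groups MED12L stood at 0.00 (adjusted p = 1).

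Epithelial markers identified the cells. Of 13 measured, 5 rose, led by the transcription factor ELF3 (1.22) and the tight junction gene CLDN4 (0.78), and their summed linear signal was 35730 to 37100 on the untreated and 44200 to 44290 on the hypoxic arrays. For fibroblast markers 1 of 12 rose (COL1A1, 0.64), with sums of 1094 to 1206 and 1403 to 1474. Of the 12, 7 had such a mean below 6. For leukocyte markers 1 of 13 rose, the lysosomal gene CD68 (1.54), with sums of 1477 to 1594 and 2878 to 2879, and 5 had such a mean below 6. For endothelial markers 1 of 10 fell (ESAM, -0.52), with sums of 997.3 to 1101 and 1025 to 1046, and 3 had such a mean below 6. The part of other cell types in the results was not tested.

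Hypoxic shCDK19 cells made a broad response. Of 18404 genes, 2049 rose (11.1%) and 3716 fell (20.2%), of which 193 rose (1.05%) and 311 fell (1.69%) at least 2-fold. With each array's median subtracted, which moved the median change of all genes from 0.03 to 0.11, the split was 3107 higher and 2963 lower. Both hypoxic arrays lay above all 8 other shCDK19 arrays, 5FU and low glucose included, for 1898 genes (10.3% of those tested) and below all 8 for 2707 (14.7%). The 193 and 311 genes were chosen on this contrast, so as a description only, 181 of the 193 and 279 of the 311 were beyond all 8.

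The gene that rose most was ANGPTL4, a secreted inhibitor of lipoprotein lipase. It read 8.39, 7.83 and 8.28 in normal growth and 12.25 and 12.27 in hypoxia, a 17.1-fold rise (4.10 ± 0.17 in log2 units, adjusted p = 5.23e-15). ANKRD37, an ankyrin repeat gene and a known HIF target, read 7.72, 7.62 and 7.68 and then 11.51 and 11.64, a 14.9-fold rise (3.90 ± 0.12, adjusted p = 2.91e-17). In both genes the hypoxic arrays lay more than 3 log2 units above every untreated one. The other 10 of the 12 genes that rose most were INSIG2 (2.96), a brake on sterol synthesis, SLC2A3 (2.94), a glucose transporter, HILPDA (2.93), an inhibitor of triglyceride breakdown, DDIT4 (2.73), an inhibitor of mTORC1, MXD1 (2.72), a repressor that pairs with MAX, P4HA1 (2.52), a collagen prolyl hydroxylase subunit, ENO2 (2.49), an enolase, ARRDC3 (2.48), an arrestin-like adaptor, DDIT3 (2.47), a stress transcription factor also called CHOP, and HK2 (2.45), a hexokinase. These 12 were the largest rises among genes whose hypoxic and untreated arrays did not overlap.

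**Figure D1:**
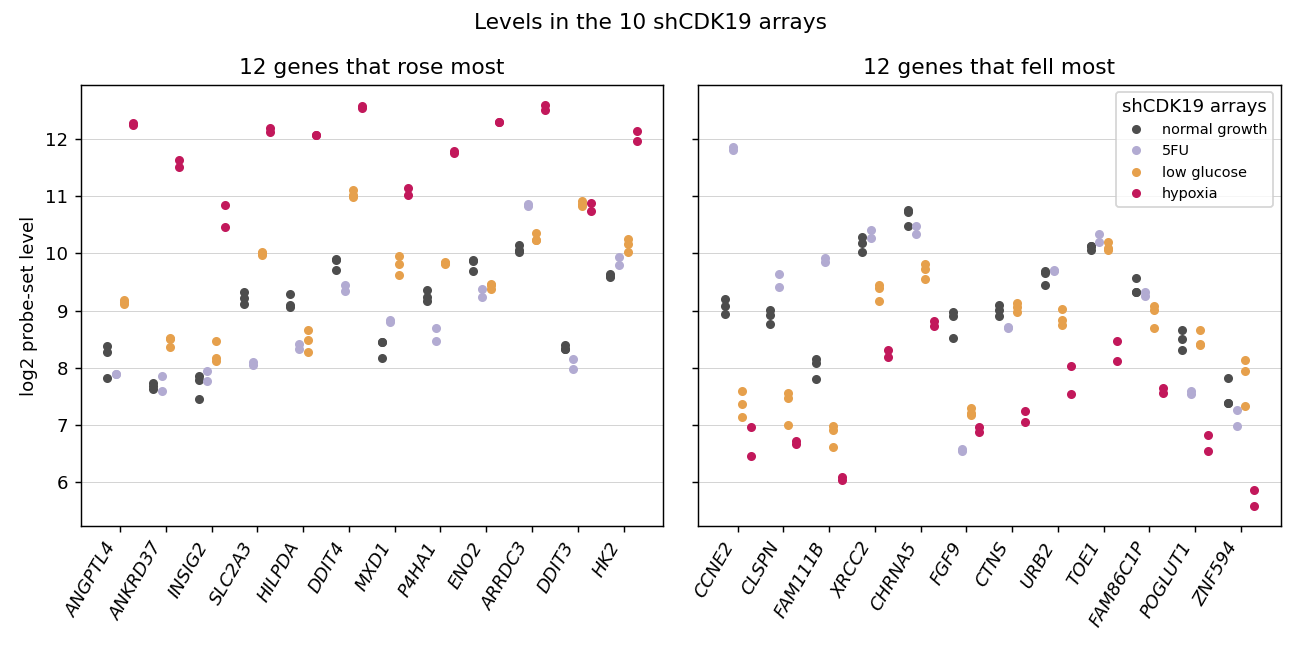
Log2 level (vertical axis) of the 12 genes that rose most and the 12 that fell most in hypoxic against untreated shCDK19 cells; each point is 1 of the 10 shCDK19 arrays, coloured by condition. The 2 hypoxic arrays of ANGPTL4 sit at 12.25 and 12.27, above every other shCDK19 array, while DDIT3 in low glucose (10.84 to 10.92) and CCNE2 in low glucose (7.13 to 7.58) came close to their hypoxic values.

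The bases just before the start sites of 4 of these responding genes are shown because HIF binds the core ACGTG or GCGTG. Each run holds the 250 bases before the start, from RefSeq on GRCh38.p14, on the gene's own strand, and capitals mark either core on either strand, so ACGTG also in its reverse complement and GCGTG in its own, with overlapping matches joined. ANGPTL4 (chr19:8363905-8364154, plus strand), ANKRD37 (chr4:185396591-185396840, plus) and DDIT4 (chr10:72273674-72273923, plus) rose most among genes with 1 listed start, and BNIP3 (chr10:131981924-131982173, minus) is shown as a gene with a like rise in all 3 lines.
ANGPTL4: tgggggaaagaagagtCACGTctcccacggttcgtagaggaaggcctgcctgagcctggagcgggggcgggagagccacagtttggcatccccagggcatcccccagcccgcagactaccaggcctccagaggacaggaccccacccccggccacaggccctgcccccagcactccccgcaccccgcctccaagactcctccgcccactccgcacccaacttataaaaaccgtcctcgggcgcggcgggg
ANKRD37: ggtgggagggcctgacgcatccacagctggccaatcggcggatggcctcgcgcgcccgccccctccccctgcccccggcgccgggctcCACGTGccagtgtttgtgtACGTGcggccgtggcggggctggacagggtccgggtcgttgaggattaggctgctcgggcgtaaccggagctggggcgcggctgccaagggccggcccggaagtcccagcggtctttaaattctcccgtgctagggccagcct
DDIT4: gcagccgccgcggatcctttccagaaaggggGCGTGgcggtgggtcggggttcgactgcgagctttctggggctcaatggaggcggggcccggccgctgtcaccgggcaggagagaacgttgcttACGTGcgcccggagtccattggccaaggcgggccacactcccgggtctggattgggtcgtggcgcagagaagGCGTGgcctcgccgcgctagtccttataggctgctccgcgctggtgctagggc
BNIP3: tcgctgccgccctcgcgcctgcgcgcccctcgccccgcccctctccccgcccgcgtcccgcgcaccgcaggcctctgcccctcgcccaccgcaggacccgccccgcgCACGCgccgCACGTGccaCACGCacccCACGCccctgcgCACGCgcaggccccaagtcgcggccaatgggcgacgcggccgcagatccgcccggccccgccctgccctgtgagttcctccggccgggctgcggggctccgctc
The window held 1 marked run for ANGPTL4, 234 bases before the start, 2 for ANKRD37 (162 and 143 bases before), 3 for DDIT4 (between 219 and 53) and 5 for BNIP3 (between 143 and 104). A core was present in 49.7% of the 20100 windows of this length that matched the tested genes (14230 of 18404 genes matched). For the 193 genes it was 61.5% of 218 windows (154 genes matched), for the 311 genes 59.8% of 328 windows (260 matched). The shares of the rising and falling genes were thus close to each other, and a match is a description of letters and not of binding.

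The response was then read through 10 lists of genes by their role in hypoxia, chosen with earlier results of these data known, which hold 177 genes of which 165 were measured. In shCDK19 cells 98 of the 165 rose, against 11.1% of all genes, and 16 fell, against 20.2%. Their median change was 0.48 against 0.03 for all genes, and 45 rose at least 2-fold. Against the mean of the 3 other shCDK19 groups in place of normal growth 108 rose and 19 fell (all genes 15.6% and 21.9%). Both hypoxic arrays lay above all 8 other shCDK19 arrays for 94 of the 165, against 10.3% of all genes. Over the same 165 genes, shControl cells in DMSO showed 20 higher and 68 lower than in normal growth (all genes 14.7% and 25.4%) and shControl cells in high glucose 54 higher and 29 lower (all genes 18.1% and 12.3%). Among windows before the start sites of the members that rose, 68.2% of 129 held a core (82 of 98 genes matched), and among those of the other members 52.1% of 96 (58 of 67 matched).

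**Figure D2:**
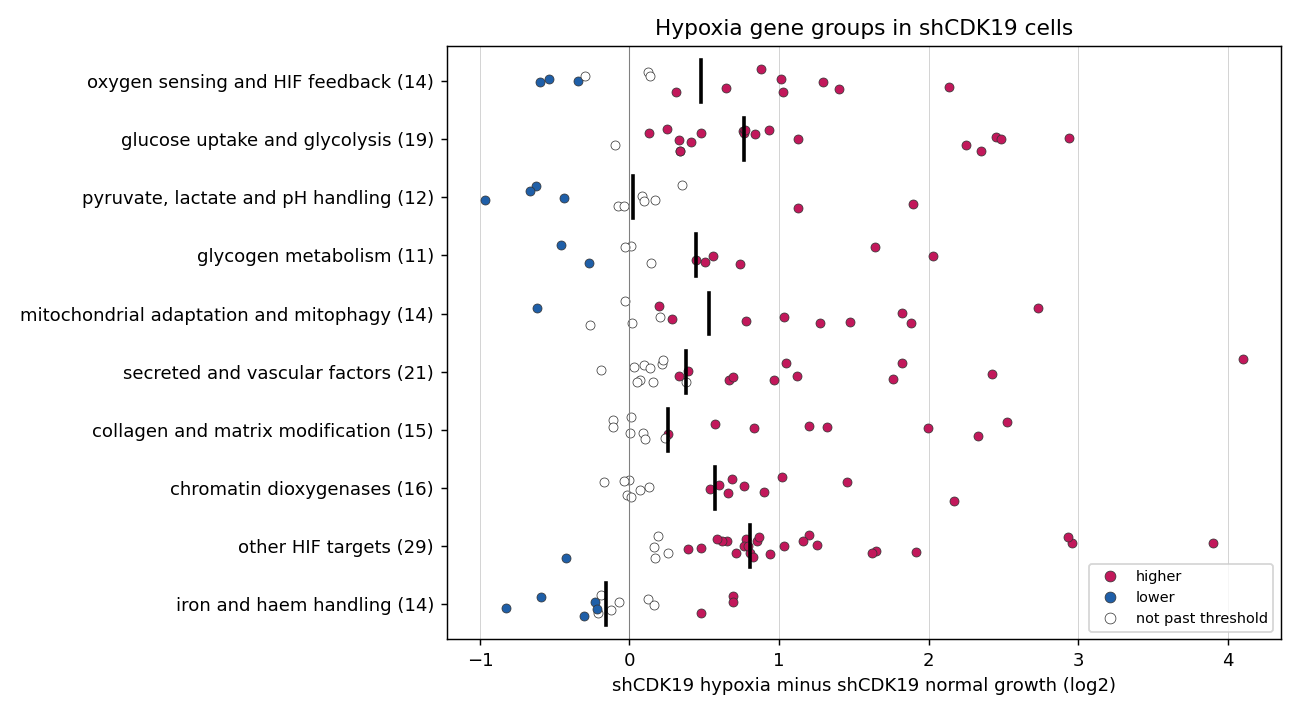
Change in hypoxic against untreated shCDK19 cells (horizontal axis, log2) of each measured member of the 10 hypoxia lists (number of members in parentheses); filled points passed the threshold, open points did not, and black bars are list medians. Glycolysis (median 0.77) and the other HIF targets (0.81) lie furthest to the right, and iron and haem handling (-0.16) lies left of 0.

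The feedback arm of oxygen sensing was made. Of 14 measured genes of oxygen sensing 8 rose and 3 fell (all genes 11.1% and 20.2%). EGLN3, a prolyl hydroxylase that HIF itself induces, read 8.47, 8.28 and 8.54 in normal growth and 9.87 and 9.79 in hypoxia (1.40 ± 0.09, adjusted p = 2.78e-11), and EGLN1 rose by 1.01. The repressors BHLHE40 (2.14) and BHLHE41 (1.29), the HIF antagonist CITED2 (0.88), the ubiquitin ligase SIAH2 (0.65) and the partner subunit ARNT (0.31) also rose. The alpha subunits went opposite ways. EPAS1, which encodes HIF2A, rose by 1.03 ± 0.07, from 10.16, 10.10 and 10.09 to 11.13 and 11.16. HIF1A read 11.79, 11.70 and 11.61 and then 11.28 and 11.43, a fall of 0.34 on the log2 scale, and VHL (-0.60) and the asparagine hydroxylase HIF1AN (-0.54) fell with it. The calls of HIF1A (adjusted p = 0.014) and HIF1AN (adjusted p = 0.017) were each lost under 4 of the alternatives tried.

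Glucose uptake and glycolysis rose almost throughout, with 18 of 19 measured genes higher and a median of 0.77; PFKM (-0.10, adjusted p = 0.40) did not pass. SLC2A3 read 9.33, 9.12 and 9.23 and then 12.20 and 12.13, a 7.67-fold rise. SLC2A1, the basal glucose transporter, read 12.59, 12.46 and 12.57 and then 13.39 and 13.37, a smaller rise of 0.84 ± 0.05 (adjusted p = 6.15e-12). The largest rises after SLC2A3 were in single isoforms of a step: ENO2 (2.49), HK2 (2.45), PFKFB4 (2.35), a kinase that sets fructose 2,6-bisphosphate, and ALDOC (2.25), an aldolase. The abundant forms of the same pathway rose less, among them PGK1 (0.77), GPI (0.76), LDHA (0.41), ENO1 (0.34), ALDOA (0.34) and GAPDH (0.13). The GAPDH call was lost in the limma fit of the compared lines alone (adjusted p = 0.0774), and its rise was 0.11 without hypoxic replicate 1. Quantile normalization set its change to 0.00, so that setting cannot test it.

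The handling of pyruvate, lactate and acid was divided. PDK1, the kinase that shuts off pyruvate dehydrogenase, read 9.77, 9.70 and 9.79 in normal growth and 11.59 and 11.71 in hypoxia (1.90 ± 0.10, adjusted p = 3.55e-13), and PDK3 rose by 1.13. Of the 12 measured genes these 2 rose, and 4 fell: PDK2 (-0.97), the carbonic anhydrase CA2 (-0.67), the pyruvate carrier subunit MPC1 (-0.62) and PDHA1 (-0.44), the catalytic subunit of pyruvate dehydrogenase. For so short a list both counts were not far from the shares of all genes (11.1% rose and 20.2% fell). CA12, another carbonic anhydrase, read 8.44, 8.35 and 8.26 and then 8.51 and 8.53 and did not pass (0.17, adjusted p = 0.25). CA9, SLC16A1 and SLC16A3 have no row among the tested genes and were not analysed here.

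Glycogen metabolism rose at 6 of 11 measured genes and fell at 2 (all genes 11.1% and 20.2%). GBE1, the branching enzyme, read 8.93, 8.85 and 8.72 and then 10.82 and 10.91 (2.03 ± 0.11). PPP1R3B, which brings a phosphatase to glycogen, read 7.75, 7.75 and 7.70 and then 9.29 and 9.45 (1.64 ± 0.11). UGP2 (0.74), GYS1 (0.56), PGM1 (0.50) and PYGL (0.45) rose less, and the primer protein gene GYG1 (-0.46) and the phosphorylase PYGB (-0.27) fell, the last with a call lost under 7 alternatives.

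Genes of mitochondrial adaptation and mitophagy rose at 9 of 14 measured members and fell at 1, HIGD1A (-0.62). BNIP3, a receptor that marks mitochondria for removal, read 10.80, 10.59 and 10.73 and then 12.55 and 12.64 (1.89 ± 0.11), and its relative BNIP3L rose by 1.28. DDIT4 read 9.88, 9.71 and 9.90 and then 12.59 and 12.55, a 6.65-fold rise. FAM162A (1.82), MXI1 (1.47), AK4 (1.03), PRELID2 (0.78), LONP1 (0.28) and AK3 (0.20) made up the others. Among 36 measured nuclear genes of oxidative phosphorylation 5 rose and 7 fell (all genes 11.1% and 20.2%), with a median of -0.01 and no change of 2-fold, and against the mean of the 3 other shCDK19 groups 4 rose and 14 fell (all genes 15.6% and 21.9%). NDUFS1 (-0.52), a core subunit of complex I, fell, and UQCRC1 (0.41) and UQCRH (0.46) of complex III rose. UQCRH did not pass without hypoxic replicate 2 (0.40, adjusted p = 0.143) and read -0.23 (adjusted p = 0.175) against the other shCDK19 groups.

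Among secreted and vascular factors 11 of 21 measured genes rose and the other 10 did not pass. VEGFA, the main vessel growth factor, read 10.14, 10.09 and 10.13 and then 11.94 and 11.96, a 3.54-fold rise (1.83 ± 0.07, adjusted p = 1.19e-15). ADM, a vasodilator peptide, rose by 2.42, STC2 by 1.76, PDGFB by 1.12, TGFA by 1.04 and the chemokine receptor gene CXCR4 by 0.97. Of these, PDGFB read 7.84, 7.79 and 7.83 and then 8.79 and 9.10. EPO (0.07, adjusted p = 0.81), VEGFC (0.16, adjusted p = 0.39), STC1 (0.10, adjusted p = 0.54) and LEP (0.22, adjusted p = 0.46), all known HIF targets in other tissues, did not pass.

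Collagen and matrix genes rose at 8 of 15 members. P4HA1 read 9.35, 9.23 and 9.17 and then 11.79 and 11.76 (2.52 ± 0.12), and LOXL2, an oxidase that crosslinks collagen, 9.46, 9.36 and 9.46 and then 11.74 and 11.78 (2.33 ± 0.08). PLOD2, a lysyl hydroxylase, rose by 2.00, P4HA2 by 1.32, PLAUR, the urokinase receptor, by 1.20, ERO1A by 0.83 and PLOD1 by 0.57. LOX itself read 5.27, 5.47 and 5.56 and then 5.45 and 5.60, near the low end of the scale in both conditions, and did not pass.

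The oxygen-dependent chromatin enzymes rose at 9 of 16 members, led by the histone demethylases KDM3A (2.17), KDM4C (1.46) and KDM4B (1.02). KDM3A read 8.87, 8.80 and 8.72 and then 10.90 and 11.04, without overlap. The DNA dioxygenases TET1 (0.13), TET2 (0.07) and TET3 (0.01) did not pass. Of 29 other HIF targets 24 rose, among them NDRG1 (1.92), TMEM45A (1.65), TMEM158 (1.62), ANKZF1 (1.26), RIMKLA (1.16) and PLIN2 (1.04), a lipid droplet coat, and FAM13A (-0.42) fell. Iron and haem handling had 3 of 14 members higher (FTL 0.69, BLVRB 0.69 and HMOX1 0.48) and 5 lower, against 11.1% and 20.2% of all genes. With the mean of the 3 other shCDK19 groups as reference 4 were higher and 4 lower (all genes 15.6% and 21.9%). FECH, the enzyme that inserts iron into haem, fell from 8.89, 8.93 and 8.79 to 7.94 and 8.14 (-0.83 ± 0.10), and the transferrin receptor gene TFRC fell by 0.23 on the log2 scale, a direction that turned to 0.21 when the mean of the 3 other shCDK19 groups served as reference.

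The 12 genes that fell most had mixed roles, with CCNE2 and CLSPN, both of DNA replication, foremost. CCNE2, a cyclin of the G1 to S transition, read 9.20, 9.07 and 8.95 and then 6.97 and 6.45 (-2.37 ± 0.17, adjusted p = 9.68e-11). CLSPN (-2.21), a replication checkpoint mediator, FAM111B (-1.95), a protease gene, XRCC2 (-1.91), a recombination factor, CHRNA5 (-1.88), a nicotinic receptor subunit, FGF9 (-1.88), a growth factor, and CTNS (-1.86), the lysosomal cystine carrier, followed. URB2 (-1.82), a ribosome biogenesis factor, TOE1 (-1.81), a 3' exonuclease, FAM86C1P (-1.81), a pseudogene whose probes could also detect a near copy, POGLUT1 (-1.81), a glucosyltransferase, and ZNF594 (-1.80), a zinc finger gene, completed the 12. Of 43 measured genes of S phase and DNA replication 40 fell and the other 3 did not pass, with a median of -0.99 and 19 at least 2-fold lower, against 20.2% and 1.69% of all genes. MCM10 (-1.50), POLA2 (-1.46) and CHAF1B (-1.39), which load, prime and package replicating DNA, followed CCNE2. The 2 hypoxic arrays lay below all 8 other shCDK19 arrays for 31 of the 43. CCNE2 was also low in low glucose, at 7.37, 7.58 and 7.13, and high in 5FU, at 11.82 and 11.86.

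DNA repair by homologous recombination fell likewise at 18 of 21 genes (median -0.71), including BRIP1 (-1.50), BRCA1 (-1.40) and BLM (-1.32). Ribosome biogenesis fell at 25 of 30 (median -0.55), led by RRS1 (-1.66), UTP15 (-1.64), UTP20 (-1.28) and the polymerase I subunit POLR1A (-1.26). The mitosis list depended on the reference. Against normal growth 8 of 43 genes rose and 6 fell (all genes 11.1% and 20.2%), with a median of -0.01, whereas against the mean of the 3 other shCDK19 groups 32 rose and 1 fell (all genes 15.6% and 21.9%), with a median of 0.48. UBE2C, the ubiquitin-conjugating enzyme of the anaphase complex, rose by 0.84 against normal growth, while CENPK (-0.89), SPC25 (-0.88) and ASPM (-0.77) fell. Against the other groups SPC25 (-0.21, adjusted p = 0.166) and ASPM (0.17, adjusted p = 0.427) did not pass. In bulk RNA fewer cells in a phase and less RNA per cell cannot be told apart.

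Stress and signalling lists were read beside all genes, of which 11.1% rose and 20.2% fell. Immediate early genes rose at 23 of 34 members, 10 of them at least 2-fold, with a median of 0.57, led by the phosphatase DUSP1 (2.29), the nuclear receptor NR4A2 (2.03), KLF4 (1.76) and FOSL2 (1.70); DUSP1 read 8.98, 9.00 and 8.79 and then 11.16 and 11.27. Sterol and fatty acid synthesis rose at 14 of 24 and fell at 3, led by INSIG1 (1.77), HMGCS1 (1.43), MSMO1 (1.19) and IDI1 (0.97); the median of 0.25 was 0.73 against the mean of the 3 other shCDK19 groups, where 18 rose and 2 fell. Chaperones of the endoplasmic reticulum rose at 10 of 24 and fell at 5, led by EDEM1 (1.26) and DNAJB9 (1.13), which serve the disposal of misfolded proteins. The ATF4 and amino acid list had 6 of 34 higher, led by DDIT3 (2.47), STC2 (1.76) and ATF3 (1.43), and 9 lower, led by the glycine carrier SLC6A9 (-0.95). Both counts were not far from the shares of all genes.

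The remaining lists moved less, and their counts stand beside the 11.1% of all genes that rose and the 20.2% that fell. NF-kB targets rose at 7 of 24 (BCL3 1.01, LIF 0.77, NFKB2 0.74 and CXCL8 0.63) and fell at 2. The TGF-beta and epithelial-mesenchymal transition list rose at 9 of 26 (ITGA5 0.68, SMAD3 0.58, SNAI1 0.50 and TGFB1 0.47) and fell at 2. Beta-catenin targets rose at 5 of 23, led by SOX9 (0.94), and fell at 3, led by AXIN2 (-0.99) and BMP4 (-0.90). Interferon-stimulated genes rose at 3 of 38 and fell at 10, led by IFIT5 (-0.91), IFI35 (-0.86), SAMD9 (-0.85) and PARP9 (-0.83), against 11.1% and 20.2% of all genes.

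**Figure D3:**
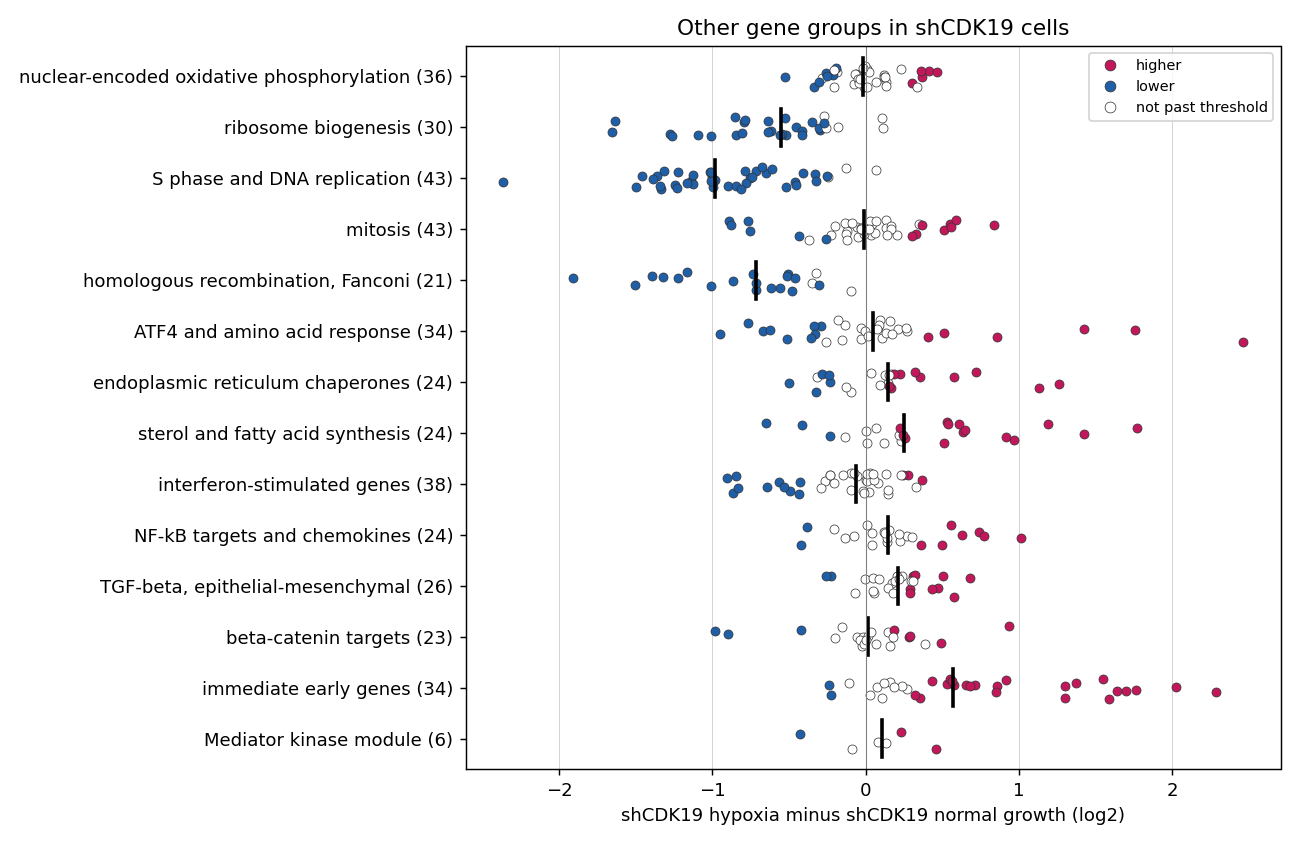
Change in hypoxic against untreated shCDK19 cells (horizontal axis, log2) of the measured members of 14 other lists (number in parentheses); filled points passed the threshold and black bars are medians. S phase (median -0.99), homologous recombination (-0.71) and ribosome biogenesis (-0.55) lie left of 0, and immediate early genes (0.57) lie right.

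The shControl line gave a list of genes higher in hypoxia from arrays that the shCDK19 contrast did not use. Both contrasts share the experiments, however, so a shift between the experiments enters both. In shCDK19 cells 11.1% of all genes rose and 20.2% fell. In shControl cells 110 genes rose at least 2-fold, and 109 of them also rose in shCDK19 cells, 97 at least 2-fold (88.2% of the 110 and 50.3% of the 193 in shCDK19). LINC00965, a non-coding RNA, was the exception (0.20 ± 0.36 in shCDK19, adjusted p = 0.75, against 1.33 in shControl, where it did not pass without hypoxic replicate 1, at 0.97 and adjusted p = 0.129). The median change of the 110 was 1.54 in shCDK19, 1.32 in shControl and 0.64 in shCDK8 cells (0.59 without normal growth shCDK8 replicate 1). Of 316 genes at least 2-fold lower in shControl, 294 fell in shCDK19, 167 of them at least 2-fold (52.8% of the 316 and 53.7% of the 311). Across all genes the changes of the 2 lines correlated at r = 0.798, over points that share both experiments, whereas the shCDK19 change correlated at 0.098 with the shControl change in DMSO and at -0.033 with that in high glucose. Without hypoxic shControl replicate 1, 142 of 144 genes were also higher and 134 of 137 also lower, and r was 0.84. Without replicate 2 instead, 101 of 169 were also higher and 727 of 900 also lower, and r was 0.668.

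Seen from the other side, 177 of the 193 genes at least 2-fold higher in shCDK19 rose in shControl (182 and 160 without its replicates 1 and 2) and 122 in shCDK8, against 21.1% and 3.52% of all genes. Of the 311 at least 2-fold lower, 310 fell in shControl (303 and 310 without its replicates 1 and 2), with FGF9 the exception, and 122 in shCDK8, against 26.7% and 5.57%. The median change of the 193 was 1.32 in shCDK19, 1.03 in shControl and 0.46 in shCDK8. For the 311 it was -1.17, -1.03 and -0.31. Without hypoxic shControl replicates 1 and 2 in turn the shControl medians were 1.16 and 0.90 for the 193 and -0.88 and -1.19 for the 311. Without normal growth shCDK8 replicate 1, 118 of the 193 rose and 174 of the 311 fell in shCDK8 (all genes 4.10% and 8.79%), with medians of 0.42 and -0.40. Because the genes were chosen in shCDK19, the larger medians there are a description.

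Of the 165 genes in the hypoxia lists, 99 rose and 25 fell in shControl (21.1% and 26.7% of all genes) and 76 rose and 5 fell in shCDK8 (3.52% and 5.57%), with medians of 0.38 and 0.23. Without hypoxic shControl replicates 1 and 2 in turn, the shControl median was 0.39 and 0.48. Without normal growth shCDK8 replicate 1, 76 rose and 7 fell in shCDK8 (all genes 4.1% and 8.79%). In both shControl and shCDK19 89 rose. Another 10 passed in shControl alone, namely CA12, COX4I2, EPO, P4HB, PPP1R3C, PPP1R3D, STC1, TF, VEGFC and VLDLR, and 9 in shCDK19 alone, AK3, EDN1, FTL, HMOX1, KDM6A, LONP1, LOXL4, PRELID2 and UGP2. Without hypoxic shControl replicates 1 and 2 in turn, the 10 became 2 and 18 and the 9 became 9 and 8. The difference between the responses of both lines did not pass for any of these, and the calls in shCDK19 were lost under 9 of the alternatives tried for EDN1, 6 for LOXL4, 2 each for AK3 and LONP1, and 1 each for HMOX1 and UGP2. Among genes that rose in both, PDK1 changed by 1.90 in shCDK19, 2.13 in shControl and 2.13 in shCDK8, BNIP3 by 1.89, 1.90 and 1.97, EGLN3 by 1.40, 1.51 and 1.67, and NDRG1 by 1.92, 1.89 and 1.32. Without the arrays that stood apart the shControl and shCDK8 values were 2.23 and 2.06 for PDK1, 1.96 and 1.86 for BNIP3, 1.61 and 1.70 for EGLN3, and 2.03 and 1.32 for NDRG1.

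**Figure D4:**
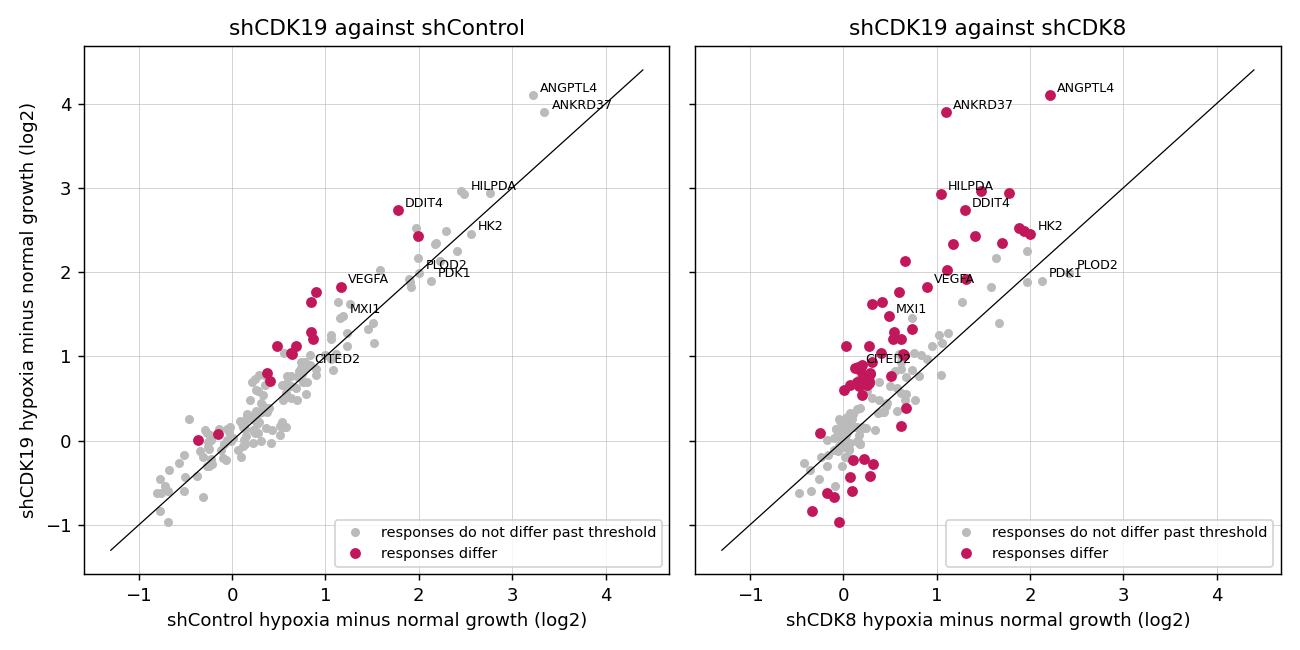
Change in hypoxia of the 165 members of the hypoxia lists in shCDK19 cells (vertical axis, log2) against the change in shControl (left) and shCDK8 (right) cells; the line marks equal change, and red points are genes whose responses differ past the threshold. Against shControl 15 points are red, all above the line, and against shCDK8 49 lie above and 12 below it.

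The difference between the shCDK19 and shControl responses passed for 383 genes, 280 higher (1.52%) and 103 lower (0.56%) in shCDK19. With quantile normalization the split was 268 higher and 258 lower. Of the 165 hypoxia genes 15 had a higher response in shCDK19, against 1.52% of all genes. A lower response was called for 0 of them by limma and 0 by the unmoderated analysis of variance, with 10 at an unadjusted p under 0.05. These counts of 15 and 0 became 6 and 0 without hypoxic shControl replicate 1 (all genes 0.679% and 0.397%) and 43 and 11 without replicate 2 (all genes 14.5% and 10.4%). The count of 383 depended on single arrays. It was 198 and 4567 without hypoxic shControl replicates 1 and 2, 80 without hypoxic shCDK19 replicate 2, 228, 253 and 198 without each shControl normal growth replicate, and 214 and 176 without shCDK19 normal growth replicates 2 and 3. Fitted on the 15 arrays of both experiments it was 60, and on the 10 of both lines 11.

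VEGFA and DDIT4 rose further in shCDK19 than in shControl. VEGFA read 10.45, 10.35 and 10.31 in untreated and 11.44 and 11.63 in hypoxic shControl cells, so that both hypoxic shCDK19 arrays (11.94 and 11.96) lay above them. The difference between the 2 responses was 0.66 ± 0.10 (adjusted p = 0.00037, limma), and 0.56 (adjusted p = 0.0046) without hypoxic shControl replicate 1. For DDIT4 the shControl arrays read 10.75, 10.31 and 10.38 and then 12.21 and 12.30, above the untreated shCDK19 level, and the difference was 0.96 ± 0.17 (adjusted p = 0.0043), or 0.92 (adjusted p = 0.024) without that array. Both calls were lost in the fit of the 10 arrays of the compared lines alone, at adjusted p = 0.098 and 0.15.

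PPP1R3B (0.80, and 0.81 without hypoxic shControl replicate 1), PDGFB (0.64 and 0.79) and PLAUR (0.34 and 0.35) also had a higher response that passed both with and without that array. Their calls were lost in the fit of the 15 arrays of both experiments, at adjusted p = 0.059, 0.15 and 0.20. The other 10 were STC2 (0.87), BHLHE41 (0.45), PFKFB3 (0.44), ADM (0.44), KLF6 (0.43), TGFA (0.41), EPAS1 (0.39), TET3 (0.37), ERRFI1 (0.30) and PDP1 (0.23), and these did not pass without hypoxic shControl replicate 1. Their differences without it were 0.66, 0.44, 0.34, 0.45, 0.35, 0.33, 0.39, 0.28, 0.17 and 0.18 in the same order, so that those of BHLHE41, ADM and EPAS1 moved by less than 0.02. TET3 and PDP1 did not change past the threshold in shCDK19 cells, so their higher responses are not larger rises. Among other induced hypoxia genes, HK2 (-0.10), SLC2A3 (0.18), P4HA1 (0.55) and ANKRD37 (0.55) did not differ past the threshold. Without hypoxic shControl replicate 2 the differences of P4HA1 and ANKRD37 were 0.72 and 0.56.

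**Figure D5:**
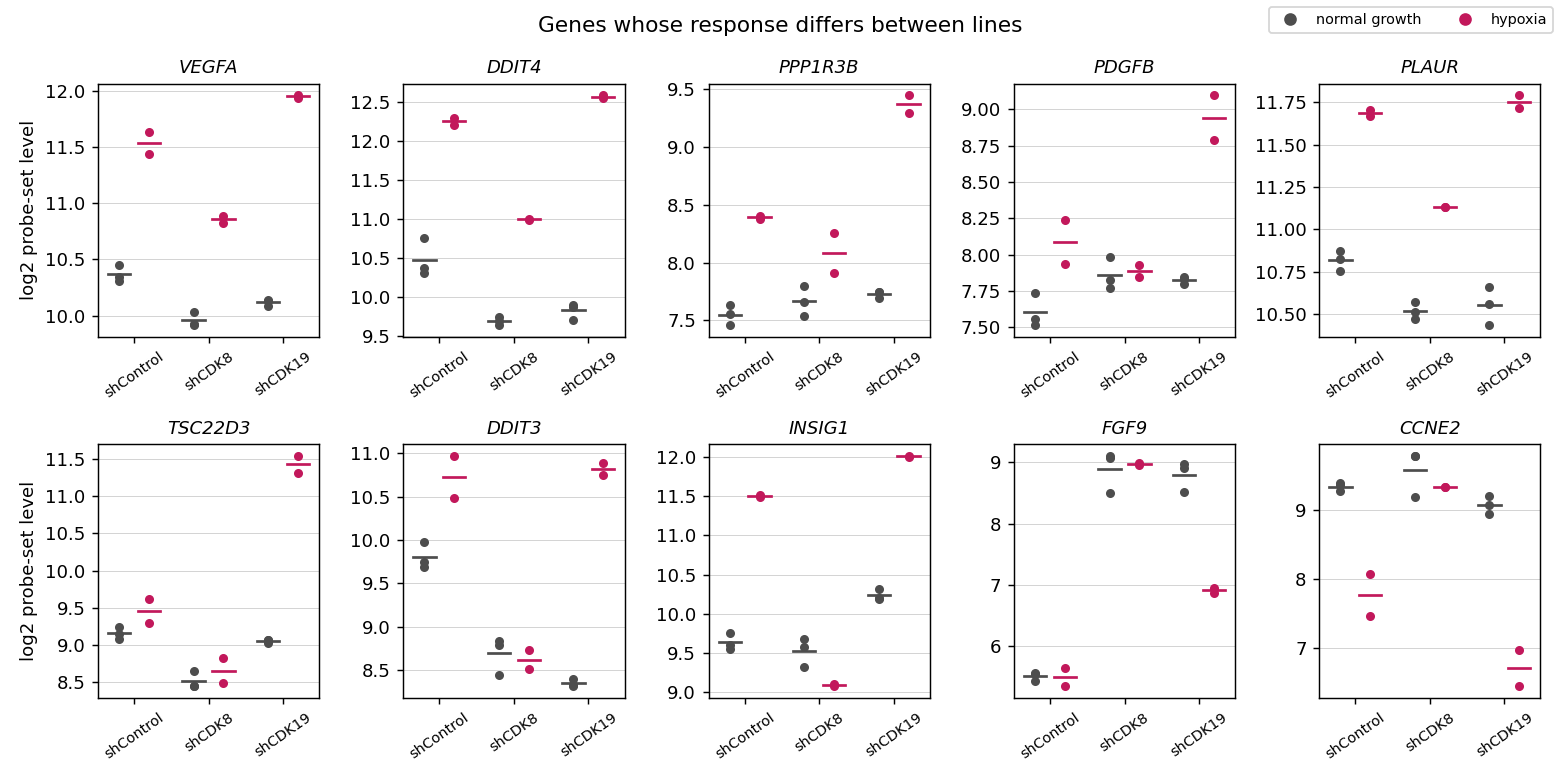
Log2 level (vertical axes, separate ranges) of 10 genes on each normal growth (grey) and hypoxia (red) array of the 3 lines; horizontal bars are group means. TSC22D3 rises to 11.31 and 11.54 in shCDK19 alone, INSIG1 rises in shControl and shCDK19 and not in shCDK8, and FGF9 falls in shCDK19 alone. In shControl FGF9 lies too near the floor to show such a fall.

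The largest differences from shControl lay outside the hypoxia lists. TSC22D3, a leucine zipper gene best known as a glucocorticoid target, read 9.06, 9.07 and 9.03 and then 11.31 and 11.54 in shCDK19, against 9.14, 9.08 and 9.25 and then 9.29 and 9.62 in shControl. Only the hypoxic shCDK19 arrays exceeded 10 among these 10, and the difference was 2.08 ± 0.15 (adjusted p = 1.7e-08; 1.91 without hypoxic shControl replicate 1). IL1RAP, an interleukin-1 receptor subunit, differed by 1.34 (1.22 without that array), FRK, a tyrosine kinase, by 1.56 (1.10), MAML2, a Notch coactivator, by 1.47 (1.23) and PLSCR1, a phospholipid scramblase, by 1.21 (1.09). In the fit of the compared lines alone these 4 did not pass, at adjusted p = 0.0528 for IL1RAP, 0.177 for FRK, 0.0561 for MAML2 and 0.0782 for PLSCR1, and FRK did not pass in the fit of both experiments either (adjusted p = 0.0766). FGF9 fell in shCDK19, from 8.97, 8.90 and 8.51 to 6.96 and 6.87, and read 5.54, 5.57 and 5.43 and then 5.65 and 5.35 in shControl, which was low throughout (difference -1.87, and -1.72 without that array). TNS4 (-1.01), ID3 (-0.96), RGS2 (-0.80) and MTNR1A (-0.73) had lower responses that passed with and without it, whereas STEAP4 (-0.83), FAM86C2P (-0.79) and AXIN2 (-0.77) did not pass without it, at -0.70, -0.60 and -0.60. TNS4 and RGS2 did not pass in the fit of the compared lines alone (adjusted p = 0.0889 and 0.098).

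For DDIT3, CHAC1 and SESN2, genes of the ATF4 stress response, the lines differed before hypoxia. DDIT3 read 8.40, 8.32 and 8.33 in untreated shCDK19 cells and 9.98, 9.69 and 9.75 in untreated shControl cells. In hypoxia the lines overlapped, at 10.75 and 10.88 against 10.49 and 10.97, and the difference of responses was 1.54 (1.30 without hypoxic shControl replicate 1). CHAC1, a glutathione-degrading enzyme, read 9.57, 9.51 and 9.52 and then 9.87 and 9.72 in shCDK19 (0.27, adjusted p = 0.14) and fell from 11.75, 11.25 and 11.29 to 9.95 and 9.51 in shControl, a difference of 1.97 (2.19 without that array). SESN2 differed by 1.15 (1.08 without it). In the fit of the compared lines alone these 3 did not pass, at adjusted p = 0.062, 0.0551 and 0.0538. Over the 34 genes of the ATF4 list 10 had a higher response in shCDK19 than in shControl, against 1.52% of all genes. In shControl 6 of the 34 rose and 21 fell (all genes 21.1% and 26.7%). The list's median change there was -0.30, and -0.21 and -0.34 without hypoxic shControl replicates 1 and 2. The count of 10 changed when either array was left out, as did the share of all genes.

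Against shCDK8 the difference of responses passed for 2446 genes, 869 higher (4.72%) and 1577 lower (8.57%) in shCDK19. With medians subtracted the split was 1145 and 1158. Of the 165 hypoxia genes 49 had a higher and 12 a lower response in shCDK19. Without normal growth shCDK8 replicate 1 the counts were 1030 higher and 1298 lower, with 54 and 8 among the hypoxia genes, and 60 genes in place of 107 were at least 2-fold lower. This comparison shares the shCDK19 arrays with the one against shControl.

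ANKRD37 differed most, by 2.80 ± 0.16 (adjusted p = 5.2e-11). It read 7.26, 7.77 and 7.43 in untreated and 8.59 and 8.57 in hypoxic shCDK8 cells, so it rose there as well, to a level about 3 log2 units below that of hypoxic shCDK19 cells. INSIG2 (1.48), HILPDA (1.88), ANGPTL4 (1.89), DDIT4 (1.43), BHLHE40 (1.47), VEGFA (0.93) and SLC2A1 (0.66) were further hypoxia genes with a higher response in shCDK19. By list, 12 of 29 other HIF targets, 7 of 19 glycolysis genes (PFKFB3, 0.85, among them) and 7 of 21 secreted factors were higher. So were 7 of 16 chromatin dioxygenases, 5 of 14 oxygen sensing genes and 4 of 15 matrix genes. The glycogen, mitochondrial and iron lists had 2 each and the pyruvate and lactate list 1. Lower were 4 pyruvate and lactate genes, 3 iron genes, 2 other HIF targets and 1 each of the oxygen sensing, glycogen and mitochondrial lists. Of all genes 4.72% were higher and 8.57% lower. The 12 with a lower response included PDK2 (-0.92), VHL (-0.69), CA2 (-0.56), CA12 (-0.45) and HIGD1A (-0.44), of which CA12 (-0.46, adjusted p = 0.0572) and HIGD1A (-0.36, adjusted p = 0.0902) did not pass without normal growth shCDK8 replicate 1. PLOD2 (-0.43) and PDK1 (-0.23) did not differ past the threshold. Without that array ANKRD37 differed by 2.92, INSIG2 by 1.60, HILPDA by 1.97, ANGPTL4 by 1.99, DDIT4 by 1.46, BHLHE40 by 1.36, VEGFA by 0.95, SLC2A1 by 0.67 and PFKFB3 by 0.87. The numbers higher became 13 for other HIF targets, 8 for secreted factors, 9 for chromatin dioxygenases and 3 for the mitochondrial list, and those of the other 6 lists were the same.

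Immediate early and sterol genes separated shCDK19 from shCDK8. Of 34 immediate early genes 19 had a higher and 2 a lower response, against 4.72% and 8.57% of all genes, with DUSP1 (2.32) and NR4A2 (2.24) foremost, and 19 of the 34 rose in shControl and 9 in shCDK8. Without normal growth shCDK8 replicate 1 the immediate early counts were 20 and 2, and 8 rose in shCDK8. Of 24 sterol and fatty acid genes 18 had a higher response, and in shCDK8 17 of the 24 fell (18 and 19 without that array). INSIG1, a brake on sterol synthesis that sterol depletion induces, read 10.32, 10.21 and 10.19 and then 12.02 and 12.00 in shCDK19 and changed by 1.86 in shControl and -0.43 in shCDK8, a difference of 2.20 ± 0.12 (adjusted p = 1.2e-11). HMGCS1 (1.93), MSMO1 (1.59) and IDI1 (1.37) differed in the same direction. MXD1 (2.53), DDIT3 (2.54), TSC22D3 (2.23) and IL1RAP (2.19) were the other large differences. Without that array these genes differed by 2.40 (DUSP1), 2.29 (NR4A2), 2.31 (INSIG1), 2.09 (HMGCS1), 1.70 (MSMO1), 1.44 (IDI1), 2.59 (MXD1), 2.66 (DDIT3), 2.27 (TSC22D3) and 2.28 (IL1RAP).

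The fall of replication genes was deeper than in shCDK8. Of the 43 S phase genes 32 had a lower response in shCDK19 than in shCDK8, against 8.57% of all genes, and 2 a lower and 0 a higher one than in shControl, against 0.56% and 1.52%. The last counts changed when either hypoxic shControl array was left out, as did the shares of all genes. The list's median change was -0.99 in shCDK19, -0.79 in shControl (-0.71 and -0.88 without hypoxic replicates 1 and 2) and -0.26 in shCDK8 (-0.31 without normal growth replicate 1). CCNE2 differed from shCDK8 by -2.12, CLSPN by -1.65, XRCC2 by -1.56 and FGF9 by -1.96, with ID3 (-1.64), ZNF594 (-1.54), CHRNA5 (-1.48) and FAM86C1P (-1.47) next. Ribosome biogenesis had 14 of 30 genes with a lower response than in shCDK8, and homologous recombination 8 of 21. Without normal growth shCDK8 replicate 1 the counts were 29 for S phase, 13 for ribosome biogenesis and 8 for homologous recombination, and CCNE2 differed by -1.92, CLSPN by -1.43, XRCC2 by -1.45, FGF9 by -1.77, ID3 by -1.57, ZNF594 by -1.48, CHRNA5 by -1.40 and FAM86C1P by -1.38.

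Levels were also compared within each experiment, which needs no reference from another. In normal growth 11 of the 165 hypoxia genes were higher and 17 lower in shCDK19 than in shControl cells (all genes 4.48% and 4.65%), and in hypoxia 28 were higher and 5 lower (all genes 8.95% and 5.40%). The counts in hypoxia changed when either hypoxic shControl array was left out, as did those of all genes. BHLHE41 was the furthest above shControl in both, at 9.24, 9.23 and 9.26 against 7.46, 7.69 and 7.61 in normal growth and at 10.54 and 10.54 against 8.42 and 8.44 in hypoxia, so that untreated shCDK19 cells already exceeded hypoxic shControl cells. SLC2A1 was likewise higher in both, by 0.80 and 0.56 (0.61 without hypoxic shControl replicate 1), with hypoxic shControl arrays at 12.87 and 12.77 against 13.39 and 13.37. PPP1R3B (0.98, and 0.99 without that array), PDGFB (0.86 and 1.01) and EPAS1 (0.78 and 0.78) were higher in hypoxic shCDK19 cells, and CA2 was lower (-0.70 and -0.66).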

How the data were processed

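Total RNA of HCT116 lines was measured on whole-transcript arrays, 1 sample per array, and samples were grouped by title. The deposited values are log2 levels per transcript cluster, which the authors made with Partek, per the submitters' processing notes. The log2 scale was judged from the values, which on the linear scale run from a floor of 20 to a ceiling of 20000. For background correction, normalization and version the sources used here give nothing. A floor shortens the change of dim genes and a ceiling that of the brightest ones. Precision is limited by the number of arrays.

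Of 32321 clusters, 19158 had 1 symbol in the platform annotation, 1388 several and 11775 none listed. The brightest cluster per gene was kept (18404 genes). All 35 arrays entered 1 fit of 14 group means (lmFit and eBayes, limma 3.58.1, R 4.3.3, 21 residual degrees of freedom), and contrasts gave each change, its SE and two-sided p-values adjusted by Benjamini-Hochberg over all genes, threshold 0.05. The one-way analysis of variance of the series' design text was run as an alternative. The method was tested on simulated data. Array pairs with identical values numbered 0.

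Members and all gene lists (10 of hypoxia roles, 14 other, 4 of cell type markers) were chosen with earlier results of these data known. The genes named are CDK8 and CDK19, the 12 largest changes in each direction without overlap, 6 hypoxia genes whatever their values (VEGFA, NDRG1, CA9, EGLN3, SLC2A1 and PDK1), members of the hypoxia lists and the kinase module, up to 4 per other list, and the 8 largest differences between lines in each direction. LINC00965 was named after its value was seen. Lists are described by counts and medians, with no set test. Alternatives changed the arrays in the fit, a filter at a mean of 6, scaling, moderation, clusters per gene, the reference group and the replicate block, and left out each array. Core motifs were searched in 250 bases before RefSeq start sites.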

Additional observations from a re-analysis of the deposited data

Results flagged for a closer look

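No group held 4 or more arrays, so single arrays were not screened for distance from their group. The results below stand out because the response to hypoxia differed between lines, and in each the difference itself was tested with limma (adjusted p under 0.05). Values are the shCDK19 response minus that of the other line in log2 units.

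Against shControl 383 genes differed. Higher responses in shCDK19 were those of TSC22D3 (2.08), CHAC1 (1.97), FRK (1.56), DDIT3 (1.54), MAML2 (1.47), IL1RAP (1.34), PLSCR1 (1.21) and SESN2 (1.15), and among the hypoxia lists DDIT4 (0.96), STC2 (0.87), PPP1R3B (0.80), VEGFA (0.66), PDGFB (0.64), BHLHE41 (0.45), PFKFB3 (0.44), ADM (0.44), KLF6 (0.43), TGFA (0.41), EPAS1 (0.39), TET3 (0.37), PLAUR (0.34), ERRFI1 (0.30) and PDP1 (0.23). Lower responses were those of FGF9 (-1.87), TNS4 (-1.01), ID3 (-0.96), STEAP4 (-0.83), RGS2 (-0.80), FAM86C2P (-0.79), AXIN2 (-0.77) and MTNR1A (-0.73). FGF9 lay near the floor in shControl, which limits the fall it could show there.

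Against shCDK8 2446 genes differed, and among the hypoxia lists 49 had a higher and 12 a lower response. The largest were ANKRD37 (2.80), DDIT3 (2.54), MXD1 (2.53), DUSP1 (2.32), NR4A2 (2.24), TSC22D3 (2.23), INSIG1 (2.20) and IL1RAP (2.19) upward, and CCNE2 (-2.12), FGF9 (-1.96), CLSPN (-1.65), ID3 (-1.64), XRCC2 (-1.56), ZNF594 (-1.54), CHRNA5 (-1.48) and FAM86C1P (-1.47) downward.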

How the results depend on the processing

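The count of genes changed in shCDK19 hypoxia (5765) ranged from 4973 to 6903 over the alternatives that kept every array of the groups compared, and from 4398 to 6263 with 1 array left out. The 98 hypoxia genes that rose ranged from 97 to 108 and, with 1 array left out, from 93 to 99, and the 109 shControl-induced genes that also rose from 108 to 145 and from 101 to 142. The 2446 genes that differed from shCDK8 ranged from 1662 to 2736, and from 1648 to 2944 with 1 array left out. All of these lie within 1.5 times the main count. The 383 genes that differed from shControl became 60 with only the 15 arrays of both experiments, 11 with the compared lines alone, 320 to 526 under the other alternatives, and 80 to 4567 with 1 array left out. The cause was not tested, apart from the fewer arrays that set the spread in the smaller fits.

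With the mean of the other shCDK19 groups as reference the changes of ASPM (0.17), DKK1 (-0.11), NDUFA1 (-0.34), TFRC (0.21) and UQCRH (-0.23) took the opposite sign, and the cause was not tested. Of 187 named genes, 163 kept direction and call of their change under every alternative run, all 16 differences to shCDK8 did, and 4 of 31 differences to shControl did (FGF9, ID3, MTNR1A and TSC22D3).

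With the replicate number as a block, 5880 genes changed, 432 differed from shControl, 2558 differed from shCDK8, and the other counts were 97 and 108. No label ties same-numbered arrays, so the numbers were not taken as pairs. The residuals of same-numbered shCDK19 arrays correlated at -0.268 and 0.177. With 2 hypoxic arrays the residuals of 1 mirror those of the other, so these values cannot decide on a pairing. Leaving hypoxic shControl replicate 1 out of the count of changed genes, the hypoxia genes and the comparison with shCDK8 (6263, 99 and 2944) was chosen after seeing the data. With 2 hypoxic arrays per line, leaving out 1 leaves a lone array that is assumed to vary like the other groups. Arrays near the floor, as for LOX and EPO, and for FGF9 in shControl, limit what can be seen of dim genes.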
